A study of Mus musculus with 6 samples.

Results

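Leydig cells are the androgen-making cells that lie between the seminiferous tubules of the testis. The genes described here are 10 steroidogenic genes of these cells, namely the luteinizing hormone (LH) receptor Lhcgr, the cholesterol carrier Star, the enzymes Cyp11a1, Hsd3b1, Hsd3b6, Cyp17a1, Hsd17b3 and Srd5a1, the peptide hormone Insl3 and the transcription factor Nr5a1. They were chosen by name, and a probe belonged to a gene where its RefSeq accession mapped to that gene. Each of the 10 genes had 1 probe, among 22464 mRNA probes that stood for 19053 named genes. RNA of whole testis from male C57/BL6 mice (C57BL/6 in the methods) was measured at 6 days after birth (neonatal) and at 8 weeks (adult). Neither age had a treatment. Each age had 3 arrays, 1 per biological replicate. Per the methods the mice of an age formed 3 groups, 1 per replicate, with more mice at 6 days than at 8 weeks. The labels do not say how the RNA of a group was combined. Replicates 1 and 2 of both ages were scanned on 1 slide and replicate 3 of both ages on another, so that slide and replicate 3 cannot be told apart.

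In the steroid pathway, LH acts on its receptor and raises cyclic AMP, Star brings cholesterol to the inner mitochondrial membrane, and Cyp11a1 cleaves it to pregnenolone. 3beta-hydroxysteroid dehydrogenases, Cyp17a1 and Hsd17b3 then lead to testosterone, which Srd5a1 and its relatives reduce further. The mouse testis holds a fetal generation of Leydig cells around birth and an adult generation that arises from interstitial precursors during the following weeks, and the comparison of 6 days with 8 weeks sets these periods of life against each other.

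The values below are normalized log2 signals, in which 0 is the 75th percentile of the array's own probes and the floor is -7.22. A difference of 1 is a factor of 2, and the level of a probe can be compared between arrays but not with that of another probe. All 10 probes were well above background on all 6 arrays. The scanner software marked 25 of the 60 spots of these genes as outliers, meaning uneven spots or spots that stand off from their population, and only Star and Nr5a1 had none. Tests left such spots out and needed at least 2 complete pairs of arrays, which allowed 6 of the 10 genes to be tested. Hsd3b6, Cyp17a1, Hsd17b3 and Insl3 could be tested only with these spots kept, and every value from that test is named as such.

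Among the 6 genes tested, 2 were higher in adult testis (Star and Cyp11a1), 3 were lower (Hsd3b1, Nr5a1 and Srd5a1) and Lhcgr passed in neither direction, with limma and a threshold of 0.05 on p after Benjamini-Hochberg adjustment. Over the 15121 mRNA probes tested in the same fit, 29.7% were higher and 45.8% lower in adult testis, so the members' counts lay near the background. With the marked spots kept, 4 of the 10 genes were higher, 4 were lower and 2 (Lhcgr and Cyp17a1) passed in neither direction. The background of that fit, over 19310 mRNA probes, was 29.8% higher and 49.5% lower. With a fold change of at least 5 required as well, 0 of the 6 genes were called, since none of their fold changes reached 5 at any p, against a background of 12.6% higher and 13.7% lower. With the spots kept, this rule called Hsd3b6 and Insl3 higher (2 of 10) and 0 of 10 lower, against 12.8% and 15.4%.

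Most genes shifted somewhat with age on this scale. The median log2 fold change, adult over neonatal, was -0.40 over the mRNA probes tested and -0.50 with the marked spots kept. The median of the members was -0.59 over the 6 tested and 0.30 over all 10 with the spots kept. Other scalings moved the median of all mRNA probes, to -0.73 with quantile normalization, -0.65 with a shift to the array median and 0.02 after the normexp background correction. The counts moved as well, from 4493 higher and 6921 lower of the 15121 to 3952 and 7823 with quantile normalization and to 6136 and 5858 after normexp, where higher calls outnumbered lower ones. Taken relative to that median, the 5 called genes kept their direction under each of these 4 scalings. The smallest such value was that of Srd5a1 with quantile normalization, at -0.31.

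Lhcgr, through which LH drives the whole pathway, had normalized log2 signals of -2.15, -2.10 and -1.89 in neonatal replicates 1, 2 and 3 and of -2.57, -2.03 and -2.07 in adult replicates 1, 2 and 3. The groups overlapped, and adult replicate 1 was the lowest of the 6 arrays. Adult over neonatal gave a log2 change of -0.17 (SE 0.20, adjusted p = 0.472, 2 pairs), which is 0.23 above the median of all mRNA probes tested. After normexp it lay on the other side of that median, at -0.13 relative to it. With the marked spot kept, the size of the change was below the SD of the adult arrays (0.30) but above that of the neonatal arrays (0.14). In whole testis, fewer cells of a type and less RNA per cell cannot be told apart, and this holds for every gene described here.

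Star, which sets the supply of cholesterol to the mitochondria and with it the acute rate of steroid synthesis, was higher in adult testis. Its signal was -2.96, -2.17 and -3.06 at 6 days and -1.59, -1.61 and -0.97 at 8 weeks. Every adult array lay above every neonatal array, with neonatal replicate 2 nearest to the adults. Adult over neonatal gave a log2 change of 1.34 (SE 0.32, adjusted p = 0.0204, 3 pairs), a 2.53-fold difference. It was 0.97 on the first slide and 2.08 on the second. The call was lost in 5 of 24 alternatives. These were leaving out replicate 1 (1.32, adjusted p = 0.16), replicate 3 (0.97, adjusted p = 0.0894) or neonatal replicates 1 and 3 (0.78, adjusted p = 0.187, chosen after seeing the data), no filter on dim probes (adjusted p = 0.106) and a paired test with Benjamini-Hochberg adjustment (adjusted p = 0.133).

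Cyp11a1, the side-chain cleavage enzyme that makes pregnenolone, was also higher in adult testis. Its neonatal values of 1.55, 1.60 and 1.57 lay close together, and its adult values were 2.87, 2.60 and 3.14. The smallest adult value was above every neonatal one, and both spots of replicate 3 were outlier-marked. Adult over neonatal gave a log2 change of 1.16 (SE 0.17, adjusted p = 0.00937, 2 pairs), or 2.24-fold. With the spots of replicate 3 kept it was 1.29 (SE 0.16, adjusted p = 0.00184, 3 pairs), with 1.16 on the first slide and 1.56 on the second. With these spots left out the call was lost in 3 of 18 alternatives, namely the adjusted paired test (adjusted p = 0.128), which passed with them kept, no filter on dim probes (0.0668) and neonatal replicates 1 and 3 left out (0.0731).

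Hsd3b1 and Hsd3b6 encode 3beta-hydroxysteroid dehydrogenases of the same step, and Hsd3b6 is described as the form of adult Leydig cells. Hsd3b1 was lower in adult testis, with 4.15, 4.24 and 4.30 at 6 days and 3.00, 3.32 and 3.17 at 8 weeks. The arrays of each age kept within a narrow range and the groups did not overlap. Adult over neonatal gave a log2 change of -1.04 (SE 0.15, adjusted p = 0.01, 2 pairs), a 2.06-fold difference, and -1.07 (SE 0.12, adjusted p = 0.00145) with the marked spots of replicate 3 kept. The same 3 of 18 alternatives lost this call with the spots left out, at adjusted p = 0.109, 0.0521 and 0.0928, and the paired test passed with them kept.

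Hsd3b6 moved in the opposite direction and by far more. Its signal was -1.81, -2.79 and -4.29 in neonatal replicates 1, 2 and 3 and 3.08, 3.47 and 3.10 in the adult replicates. The adult arrays were alike (3.22 ± 0.22, SD, n = 3) while the neonatal arrays were spread (-2.96 ± 1.25, SD, n = 3), with neonatal replicate 3 the lowest. All 3 adult spots were outlier-marked, so the change could be tested only with them kept. That test gave a log2 change of 6.18 (SE 0.51, adjusted p = 0.000552), or 72.6-fold, with 5.57 on the first slide and 7.40 on the second.

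The difference between the Hsd3b6 and Hsd3b1 probes on the same array needs no scaling between arrays, and its change with age shows how unequally the paralogues moved. With the marked spots kept, Hsd3b6 minus Hsd3b1 was -5.97, -7.03 and -8.60 on the neonatal arrays and 0.08, 0.15 and -0.07 on the adult arrays. All 3 adult differences were above all 3 neonatal ones. The mean rose by 7.25 on the log2 scale, 152-fold, and the rise was 6.05, 7.18 and 8.53 in the pairs of replicates 1, 2 and 3. An exact two-sided permutation test gave p = 0.1, the smallest that 3 arrays against 3 allow. The difference itself holds each probe's own brightness, so only its change between ages can be read.

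Cyp17a1, whose hydroxylase and lyase activities turn C21 steroids into androgens, did not separate the ages. Its signal was -1.18, -0.48 and -1.79 at 6 days and 0.49, -0.84 and -0.77 at 8 weeks. Neonatal replicate 2 was above adult replicates 2 and 3, and 4 of the 6 spots were outlier-marked. With these spots kept adult over neonatal gave a log2 change of 0.77 (SE 0.43, adjusted p = 0.165), positive in the pairs of replicates 1 and 3 (1.67 and 1.02) and negative in that of replicate 2 (-0.37). Without replicate 2 it was 1.34 and passed the threshold (adjusted p = 0.0238). Over the 23 alternatives it ranged from 0.10 to 1.34, and only the one without replicate 2 passed.

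Hsd17b3, which reduces androstenedione to testosterone and is described as an enzyme of adult Leydig cells, was lower in adult whole testis. Its signal was 2.38, 2.69 and 2.26 at 6 days and 0.52, 0.76 and -0.08 at 8 weeks. Each neonatal array was above each adult array, and all 6 spots were outlier-marked. With the spots kept adult over neonatal gave a log2 change of -2.04 (SE 0.15, adjusted p = 0.000379), a 4.12-fold difference, with -1.90 on the first slide and -2.33 on the second.

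Srd5a1, a 5alpha-reductase that converts testosterone to dihydrotestosterone, was lower in adult testis as well. Its signal was 1.04, 0.79 and 1.20 at 6 days and -0.12, -0.08 and 0.14 at 8 weeks. The lowest neonatal array, that of replicate 2, lay above the highest adult array. Adult over neonatal gave a log2 change of -1.02 (SE 0.16, adjusted p = 0.0123, 2 pairs), or 2.02-fold, and the value with the marked spots of replicate 3 kept was -1.03 (SE 0.12, adjusted p = 0.00183). With these spots left out the call was lost in 2 of 18 alternatives, the adjusted paired test (adjusted p = 0.133), which passed with them kept, and no filter on dim probes (0.0706).

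Set against Srd5a1 on the same array, Hsd17b3 declined further. With the marked spots kept, Hsd17b3 minus Srd5a1 was 1.34, 1.90 and 1.05 on the neonatal arrays and 0.64, 0.84 and -0.22 on the adult arrays. No adult value reached the lowest neonatal value of 1.05. The mean difference was -1.01 between the ages on the log2 scale (exact two-sided permutation test, p = 0.1, the smallest possible), and it was -0.70, -1.06 and -1.27 in the pairs of replicates 1, 2 and 3.

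**Figure D1:**
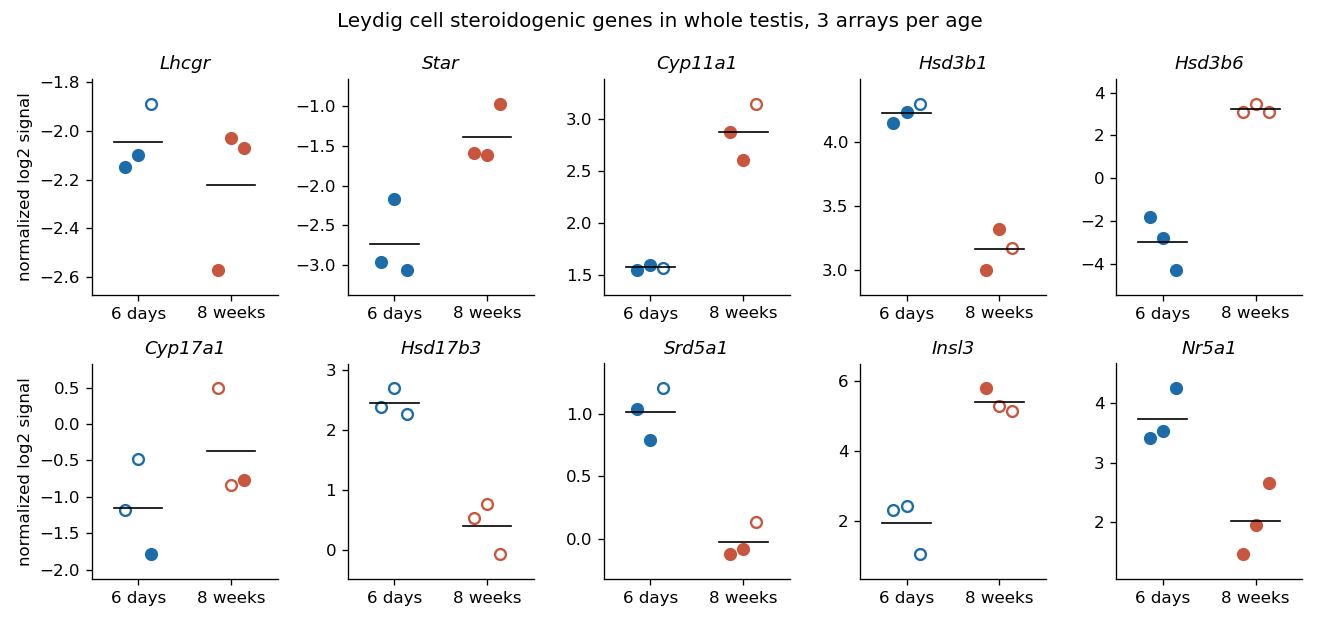
Normalized log2 signal (vertical axes, each gene on its own scale) of the 10 genes at 6 days and 8 weeks, with 1 point per array (replicates 1 to 3 from left to right), open points for outlier-marked spots and a line at the mean of the 3 arrays. Hsd3b6 and Insl3 show the widest gaps, with all adult arrays above all neonatal arrays, Hsd3b1, Hsd17b3, Srd5a1 and Nr5a1 are lower on all adult arrays, and the ages overlap for Lhcgr and Cyp17a1.

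Insl3, a peptide hormone of Leydig cells that acts on the gubernaculum before birth and later on germ cells, was higher in adult testis. Its signal was 2.31, 2.42 and 1.03 at 6 days and 5.80, 5.30 and 5.14 at 8 weeks. Neonatal replicate 3 was the lowest array, and the adult arrays were all above the neonatal ones. Because 5 of the 6 spots were outlier-marked, the test needed these spots kept, and it gave a log2 change of 3.49 (SE 0.27, adjusted p = 0.000443), or 11.2-fold. The difference was 3.18 on the first slide and 4.11 on the second.

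Insl3 is a product of the cells that carry Lhcgr. Insl3 minus Lhcgr on the same array, with the marked spots kept, was 4.47, 4.52 and 2.92 at 6 days and 8.36, 7.33 and 7.20 at 8 weeks. The adult differences lay above the neonatal ones on all 3 arrays. The mean rose by 3.66 on the log2 scale, 12.7-fold (exact two-sided permutation test, p = 0.1, the smallest possible), by 3.90, 2.81 and 4.28 in the pairs of replicates 1, 2 and 3. The hormone and the receptor thus changed unequally between the ages.

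Nr5a1 (steroidogenic factor 1), a nuclear receptor that binds the promoters of steroidogenic genes and is also made by Sertoli cells, was lower in adult testis. Its signal was 3.42, 3.54 and 4.25 at 6 days and 1.45, 1.95 and 2.66 at 8 weeks. Replicate 3 was the highest array at both ages, and the groups did not overlap. With no spot marked, adult over neonatal gave a log2 change of -1.72 (SE 0.13, adjusted p = 0.000802, 3 pairs), or 3.29-fold, with -1.78 on the first slide and -1.59 on the second. The call was lost in 1 of 24 alternatives, with neonatal replicates 1 and 3 left out (-1.52, adjusted p = 0.147).

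Genes described as fetal-type or adult-type Leydig cell genes were set beside the members. Of the 3 fetal-type genes, 2 were lower in adult testis (Thbs2 and Mc2r) and 1 was higher (Crhr1), with a median log2 fold change of -1.90, or -1.51 with Mc2r at its bound. Of the 5 adult-type genes, 3 could be tested with the marked spots left out and all 3 were higher (Sult1e1, Ptgds and Vcam1). With the spots kept 4 of 5 were higher, and Hsd17b3 was the exception. The median of the adult-type list was 2.24 in both fits, against -0.40 and -0.50 over all mRNA probes tested, of which 29.7% were higher and 45.8% lower, or 29.8% and 49.5% with the spots kept.

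Thbs2, which encodes thrombospondin 2, had signals of 1.89, 1.83 and 1.68 at 6 days and -3.95, -3.33 and -4.31 at 8 weeks. The ages lay far apart on every pair, with a log2 change of -5.50 (SE 0.24, adjusted p = 0.00071, 2 pairs), lost in the adjusted paired test (adjusted p = 0.0735). Mc2r, the receptor for adrenocorticotropic hormone, was well above background on the 3 neonatal arrays (-5.77, -4.80 and -5.40) and on no adult array. By the bound described next it was 2.85-fold higher at 6 days (adjusted p = 0.00231). This call was lost after normexp (log2 change -0.23, adjusted p = 0.185) and in a paired test with Benjamini-Hochberg adjustment (adjusted p = 0.0509). The bound sets the neonatal mean against the dimmest well measured probe of each adult array, or against its own signal where that was higher. That probe is not a detection limit for other probes, so such bounds are not strict and depend on the floor. Crhr1, a receptor for corticotropin-releasing hormone, went the other way, from -5.74, -5.11 and -4.41 to -3.53, -3.53 and -3.14, with no overlap (log2 fold change 1.69, SE 0.22, adjusted p = 0.0031, 3 pairs), a call that the adjusted paired test lost (adjusted p = 0.0567).

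Sult1e1, the oestrogen sulfotransferase, rose from -3.95, -3.78 and -4.40 at 6 days to 1.80, 2.05 and 1.49 at 8 weeks. Adult over neonatal gave a log2 change of 5.79 (SE 0.14, adjusted p = 0.000251, 2 pairs). Ptgds, a prostaglandin D synthase, rose from -6.12, -5.76 and -6.42 to -3.60, -3.99 and -3.98 (log2 fold change 2.24, or 1.41 after normexp, adjusted p = 0.00106, 3 pairs). Vcam1, a cell adhesion molecule, was at -2.17, -2.08 and -1.25 at 6 days and at -1.73, -1.60 and -0.65 at 8 weeks. The ages overlapped for Vcam1, but each adult array was above the neonatal array of its own number, by a mean of 0.51 (adjusted p = 0.0121). This call was lost in 13 of the 24 alternatives that gave a value, among them that with no replicate block (adjusted p = 0.291). Within arrays and with the marked spots kept, Sult1e1 minus Thbs2 was -5.84, -5.61 and -6.08 at 6 days and 5.75, 5.38 and 5.81 at 8 weeks. The difference was larger at 8 weeks in every pair, and the mean rose by 11.49 on the log2 scale (exact two-sided permutation test, p = 0.1, the smallest possible). Sult1e1 and Thbs2 had the largest changes of their lists in the fit with marked spots left out. Their separation follows from those changes and is no further test of the lists. Crhr1 and Hsd17b3 of the same lists moved the other way.

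**Figure D2:**
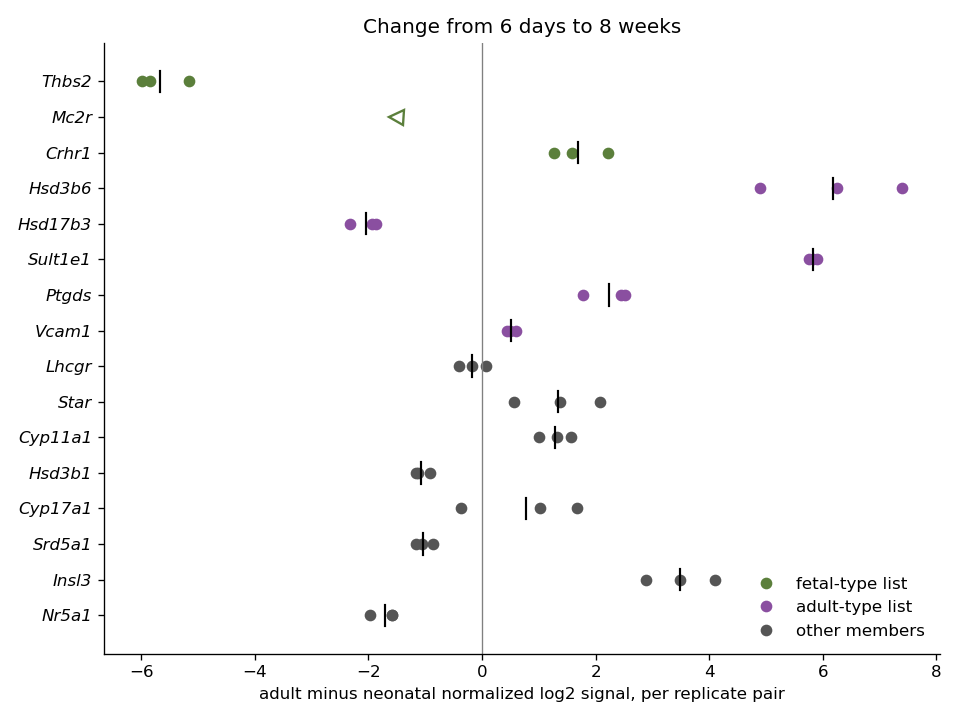
Adult minus neonatal normalized log2 signal (horizontal axis) of each replicate pair, outlier-marked spots kept, with a bar at the mean of the 3 pairs, for the fetal-type genes, the adult-type genes and the other members. The open triangle stands at the bound of Mc2r, which was not well above background on any adult array. The size of this bound depends on the floor. Crhr1 lies to the right of 0 unlike Thbs2 and Mc2r, and Hsd17b3 lies to the left unlike the other adult-type genes.

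RefSeq promoters (build GRCm38.p6) were at hand for 7 of the 10 members, among them the paralogues Hsd3b1 and Hsd3b6, which moved in opposite directions, and Insl3. The 250 bases before each start were searched on both strands for AAGGTCA, the core bound by Nr5a1, and for the looser AAGGNCA, which includes every AAGGTCA. Of 32851 promoters of this length, 4.08% held AAGGTCA and 17.5% held AAGGNCA. None of the 7 members held either in this window (0 of 7), which says only that these letters are not there. The Hsd3b1 promoter lies at chr3:98859795-98860044 and that of Hsd3b6 at chr3:98814444-98814693, both on the minus strand. The Insl3 promoter lies at chr8:71689002-71689251 on the plus strand. They are shown because these genes changed most or in opposite ways, and they carry no capitals because no match was found.
Hsd3b1: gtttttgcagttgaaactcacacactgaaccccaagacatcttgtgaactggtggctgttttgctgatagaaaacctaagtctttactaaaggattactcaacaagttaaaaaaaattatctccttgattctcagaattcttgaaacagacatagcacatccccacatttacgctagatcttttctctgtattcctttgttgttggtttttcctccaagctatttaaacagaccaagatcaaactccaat
Hsd3b6: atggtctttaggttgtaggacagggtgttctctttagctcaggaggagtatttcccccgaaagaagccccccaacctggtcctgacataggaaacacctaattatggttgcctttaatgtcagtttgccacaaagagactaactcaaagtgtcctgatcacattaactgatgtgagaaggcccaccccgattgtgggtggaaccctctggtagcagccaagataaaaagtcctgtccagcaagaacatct
Insl3: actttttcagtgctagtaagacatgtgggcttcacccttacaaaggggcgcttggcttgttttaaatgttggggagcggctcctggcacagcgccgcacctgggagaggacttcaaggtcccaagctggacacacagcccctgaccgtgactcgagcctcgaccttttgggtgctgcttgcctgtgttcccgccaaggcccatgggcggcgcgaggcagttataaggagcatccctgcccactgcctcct

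Of the 6 fetal-type and adult-type genes outside the members, 4 had a promoter that was searched (Thbs2, Crhr1, Sult1e1 and Ptgds), and those of Sult1e1 and Thbs2 held a match. The search of listed genes left out a chromosome, which the shares over all promoters did not. Sult1e1 had AAGGTCA on the opposite strand, read as TGACCTT, starting 113 bases before the start (chr5:87591612-87591861, minus strand). Thbs2 had AAGGCCA, a form of AAGGNCA, 233 bases before the start (chr17:14694263-14694512, minus strand). The matches are in capitals. These genes moved in opposite directions between the ages, and a match is a description of the sequence alone.
Sult1e1: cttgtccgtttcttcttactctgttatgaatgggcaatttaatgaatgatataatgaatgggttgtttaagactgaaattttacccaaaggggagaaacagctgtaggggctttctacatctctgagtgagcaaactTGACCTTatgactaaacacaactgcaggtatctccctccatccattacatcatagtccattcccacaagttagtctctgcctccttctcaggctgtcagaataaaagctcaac
Thbs2: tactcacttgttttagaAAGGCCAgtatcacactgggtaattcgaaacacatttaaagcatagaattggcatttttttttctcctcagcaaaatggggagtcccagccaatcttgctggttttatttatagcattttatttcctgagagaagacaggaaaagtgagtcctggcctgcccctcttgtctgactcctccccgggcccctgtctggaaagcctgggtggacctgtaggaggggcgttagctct

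The genes whose 6 values followed those of Hsd3b1, Hsd3b6 and Insl3 most closely were looked for among 4381 mRNA probes without an outlier-marked spot that stood well above background throughout. Likeness was the root mean square difference over the 6 arrays after centring each gene on its mean. For Hsd3b1 the nearest were Casp12 (0.07), Acp5 (0.09) and Parg (0.10). For Insl3 they were Phkg2 (0.28), Glyctk (0.31) and Apof (0.32), and for Hsd3b6 Nek11 (0.69), Pde6h (0.70) and Proc (0.76). The distances of Hsd3b6 were the largest of the 3 sets, and its neonatal arrays were also the most spread.

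The members draw on cholesterol, and of 16 genes of cholesterol synthesis, uptake, storage and transport 10 could be tested, of which 1 was higher and 7 were lower in adult testis (median log2 fold change -1.11). Over all mRNA probes tested in that fit 29.7% were higher and 45.8% lower, which is the background of each list below. Among the lower genes were the lysosomal cholesterol transporter Npc1 (-2.61, adjusted p = 0.00217), Dhcr7 of the last step of cholesterol synthesis (-1.74, adjusted p = 0.00267) and the sterol carrier Stard4 (-1.68, adjusted p = 0.00327). Lipe, which frees cholesterol from its esters, was the gene that was higher (0.97, adjusted p = 0.00159, call lost in 2 of 24 alternatives). Of 5 electron donors of the steroidogenic cytochromes P450, 3 were tested and 2 were lower, Por (-1.19, adjusted p = 0.00709) and Cyb5a (-0.99, adjusted p = 0.0163), with a median of -0.99. Por lost its call in 2 of 18 alternatives and Cyb5a in 4 of 18 (adjusted p up to 0.166). The electron donors of Cyp11a1 itself could be tested only with marked spots kept, where Fdxr was lower (-3.79, adjusted p = 0.000131) and Fdx1 higher (0.82, adjusted p = 0.0163).

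Other enzymes that convert androgens and oestrogens moved in both directions. Of 16 listed, 15 had a probe and 10 were tested, with 4 higher, 4 lower and a median log2 fold change of 0.47, or 0.37 with 4 genes at their bound. With the marked spots kept 14 were tested, 4 higher and 8 lower, and the median turned to -0.80. Besides Sult1e1, the higher ones were Hsd17b2, which inactivates testosterone and oestradiol, the aromatase Cyp19a1, and Srd5a2, the other main 5alpha-reductase beside the member Srd5a1. Hsd17b2 was not well above background on any neonatal array. By its bound it was 35.5-fold higher at 8 weeks (adjusted p = 9.28e-05). After normexp, whose added offset shrinks the changes of dim probes, the log2 change was 3.13. Cyp19a1 was well above background on 1 of 3 neonatal arrays and had a log2 fold change of 5.18 (adjusted p = 0.000125), or 3.12 after normexp. Srd5a2 was so on 2 of 3 and had a log2 fold change of 3.49 (adjusted p = 0.000136), or 2.05 after normexp, the opposite direction to Srd5a1. Where some or all arrays of an age were not well above background, the size of a change or bound depends on the floor. The lower ones were Hsd17b1 (-4.65, adjusted p = 0.000965), Hsd17b12 (-1.67, adjusted p = 0.00271), Hsd17b7 (-1.52, adjusted p = 0.00317) and Cyp7b1. By its bound Cyp7b1 was 5.4-fold higher at 6 days (adjusted p = 0.000793, log2 change -0.44 after normexp).

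Of 10 paralogues of Hsd3b1 and enzymes of corticosteroid synthesis, 6 were well above background on some array and tested, with 1 higher, 2 lower and a median of -0.46. By the bound of its brighter probe, Hsd3b4 was 16.7-fold higher at 8 weeks (adjusted p = 0.00131, log2 change 2.52 after normexp, call lost in 1 of 24 alternatives). Its dimmer probe did not pass (adjusted p = 0.129). Hsd11b2, which inactivates glucocorticoids, was lower (-4.97, adjusted p = 0.00049), as was Cyp11b1, the last enzyme of glucocorticoid synthesis, with -1.76 (adjusted p = 0.00217, -0.26 after normexp, well above background on 1 of 3 adult arrays).

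Of 15 transcription regulators of Leydig cells and their precursors besides Nr5a1, 10 were tested, with 0 higher at an adjusted or an unadjusted p of 0.05, 9 lower and a median of -2.09. Among the lower genes were the precursor factors Nr2f1 (-3.61, adjusted p = 0.00056), Lhx9 (-2.81, adjusted p = 0.0013) and Nr2f2 (-2.42, adjusted p = 0.00121). Downstream of Lhcgr, 9 of 14 signalling genes were tested, with 1 higher, 6 lower and a median of -1.87. These included the cyclic AMP phosphodiesterase Pde8b (-3.64, adjusted p = 0.000565), the receptor adaptor Arrb2 (-2.99, adjusted p = 0.00115), the protein kinase A subunit Prkar2b (-2.51, adjusted p = 0.000216) and the adenylate cyclase Adcy9 (-2.24, adjusted p = 0.000943). Pde8a was higher (1.64, adjusted p = 0.00182, 0.96 after normexp), with 1 of 3 neonatal arrays well above background, and lost its call in 5 of 24 alternatives (adjusted p up to 0.0867).

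Of 17 receptors and ligands for cues between Leydig and other testis cells, 10 were tested, with 0 higher at an adjusted or an unadjusted p of 0.05, 8 lower and a median of -2.66. Among the lower genes were Inhba (-5.95, adjusted p = 0.000655, -3.59 after normexp, well above background on 1 of 3 adult arrays), the hedgehog target Gli1 (-4.52, adjusted p = 0.000397), the growth hormone receptor Ghr (-3.68, adjusted p = 0.000735) and Igf1 (-3.07, adjusted p = 0.000821). The dimmer probe of Ghr did not pass (-0.15, adjusted p = 0.499). Rxfp2, the receptor for Insl3, could be tested only with marked spots kept and was chosen after its values were seen. It was not well above background on any neonatal array and had adult signals of 0.26, 0.10 and -0.89. By its bound it was 118-fold higher at 8 weeks (adjusted p = 9.83e-05). The log2 change was 6.91 from the floored values and 3.89 after normexp.

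Markers of other testis cells were measured on the same arrays as the members. The sums below add the scaled signals of a list, in units of the 75th percentile of the array, in the order of neonatal and then adult replicates 1 to 3, and the gene called brightest is that with the highest mean log2 signal over the 6 arrays, which need not add most to the sum. Spermatid markers (7 of 7 with a probe) summed to 0.676, 0.714 and 0.801 and then to 1077, 1253 and 1444, with Tnp1 the brightest, and all 6 tested were higher, among them Prm2 (14.32, adjusted p = 7.62e-05). Spermatocyte markers (6 of 6) went from 19.6, 16.2 and 13.3 to 145, 160 and 175, with Hspa2 the brightest, and 4 of 5 tested were higher while Dmc1 was lower. Dmc1 was well above background on 1 of 3 adult arrays and lost its call in 2 of 24 alternatives. The sums of both lists were far higher on every adult array.

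Sertoli cell markers (9 of 10 with a probe) summed to 51, 52.2 and 27.2 and then to 11.6, 7.83 and 5.46, with Clu the brightest, and all 4 tested were lower. Spermatogonial markers (7 of 7) went from 106, 113 and 97.5 to 22, 23.1 and 17.4, with Uchl1 the brightest and Gfra1 not well above background on any array, and 3 of 4 tested were lower while Id4 was higher (call lost in 2 of 20 alternatives). Endothelial markers (6 of 6) went from 8.11, 9.23 and 15 to 2.25, 1.91 and 3.28, with Cdh5 the brightest, and all 5 tested were lower, though Vwf lost its call in 13 of 24 alternatives and was at 0.30 after normexp. These somatic and early germ cell lists were lower on every adult array, as were Hsd3b1, Hsd17b3, Srd5a1 and Nr5a1.

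Peritubular myoid markers (6 of 6) summed to 21.9, 22.1 and 27.1 and then to 5.47, 4.56 and 6.73, with Myh11 the brightest and Cnn1 not well above background on any array, and 3 of 5 tested were lower, while Actg2 did not pass (1.77, adjusted p = 0.0567) and was higher with its marked spots kept (2.01, adjusted p = 0.0102). The log2 of the sum of macrophage markers (5 of 6) went from 2.76, 2.69 and 2.50 to 3.27, 3.24 and 3.39, with Fcgr3 the brightest, and of 3 tested Fcgr3 was higher and Csf1r lower, the latter a call lost in 11 of 20 alternatives. With marked spots kept, Adgre1 of this list was lower (-0.86, adjusted p = 0.0137). Red blood cell markers (3 of 4) went from 4.69, 5.98 and 2.3 to 2.75, 2.57 and 2.11, with Alas2 the brightest, and Alas2 was higher, while Hba-a1 was lower with its marked spots kept. The part of these cell types in the results on the members was not tested.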

How the data were processed

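RNA of whole testis from neonatal (6 day) and adult (8 week) mice was hybridized to 1-colour (Cy3) Agilent arrays of lncRNA and mRNA probes, with 3 arrays per age. The authors extracted the deposited fluorescence intensity with Agilent Feature Extraction 10.5.1.1. They also deposited a table of log2 values, which equalled log2 of the signal floored at 5 minus a constant per array, within 0.001 for 99.8% of values. Each deposited processed signal was scaled to the 75th percentile of its array, floored at a common log2 value of -7.22 and taken to log2.

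Spots that the software marked as outliers were left out, or kept in a second fit. Tested probes had at least 2 complete pairs of arrays and were well above background on 1 array or more. Adult was compared with neonatal in limma 3.58.1 (R 4.3.3) with replicate number as a block, and Benjamini-Hochberg adjustment ran over all lncRNA and mRNA probes tested, 24517 with these spots left out and 29888 with them kept. The threshold was an adjusted p of 0.05, and also a fold change of 5 where stated. Within-array differences were compared by exact two-sided permutation tests. Other steps used Python 3.11.15, numpy 2.4.6, scipy 1.17.1, pandas 2.3.3 and matplotlib 3.10.9.

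The labels do not say that replicates of the same number belong together. As a check on the block, deviations from the age mean over 14886 probes correlated across probes at 0.341, 0.248 and 0.587 between arrays of the same number, at 0.323 and 0.286 between different numbers on the same slide, and at -0.492 to -0.377 between slides. Probes are not independent replicates. These correlations follow the slide as much as the number.

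The 75th percentile of signal was 2947, 2503 and 1385 on the neonatal and 1856, 1425 and 747 on the adult arrays, and the outlier-marked share was 10.7%, 9.84% and 30.7%, then 8.32%, 6.11% and 25.4%. The number of arrays limits the precision. Genes named are every member, the fetal-type and adult-type genes, up to 4 called genes with the largest changes from each other list, the genes behind counts of 5 or fewer, and the 3 nearest patterns of Hsd3b1, Hsd3b6 and Insl3. A few genes that this rule covers are not named, though the counts and medians of their lists include them. A gene with several probes is given by its brightest. The members and lists were chosen with earlier results of these data known. Alternatives tried were other floors, scalings, filters, backgrounds, blocks and tests, and leaving out each replicate or array.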

Additional observations from a re-analysis of the deposited data

How the results depend on the processing

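Counts of calls over all probes depended on the test and on single replicates. With outlier-marked spots left out, 18233 of 24517 probes were called, against 10079 with a paired test and the same adjustment, 16492 with no replicate block and 8004 to 16950 when a replicate or an array was left out. Fewer probes could be tested there (8004 of 15206 without replicate 1, 8038 of 14955 without replicate 2), and with the marked spots kept the range was 18228 to 21406 of 29888. With a fold change of at least 5 as well, 6760 were called, 4199 after normexp and 3345 to 6797 with a replicate or array left out.

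Of the members, 5 of 6 were called, and 5 with no replicate block. The count was 1 with no filter on dim probes, 1 with a paired test and the same adjustment, 1 to 5 with a replicate or array left out, and 8 with the marked spots kept. Leaving out replicate 1 or 2, or any array of these, left at most 3 members tested, because marked spots of replicate 3 had already been left out. With a fold change of at least 5 the count was 0, and 2 with the authors' log2 values or with the marked spots kept.

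With the marked spots kept, 23273 of 29888 probes and 8 of 10 members were called. Members numbered 7 to 9 when a replicate or array was left out, 8 with no replicate block and 5 with the spots left out. With a fold change of at least 5, 8803 probes were called (5628 after normexp) and 2 members (0 with the spots left out). Keeping the spots together with each other alternative was chosen after seeing the data. So was leaving out neonatal replicates 1 and 3 together with no block, where Crisp1 was high. It left 1 of 6 members and 12163 probes called with the spots left out, and 6 of 10 members and 14435 probes with them kept. The lone neonatal array is there assumed to vary like the others.

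Over 79 named genes, 1662 values came from alternatives, of which 1533 kept their side of the threshold without a called change of sign (5 of these, of genes not called, changed sign), 127 fell short of it, 1 passed it (Cyp17a1 without replicate 2) and 1 reversed. The members gave 213 of these values, 198 on the same side of the threshold, 14 short of it, 1 past it and 0 reversed. Vwf, at -0.73, was 0.30 after normexp. Lhcgr, not called, was at 0.08 without adult replicate 1, which is the change of sign among the members, and Adam7 gave the other 4. Star lost its call in 5 of 24 alternatives (adjusted p from 0.00694 to 0.187).

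The within-array differences used the marked spots, and with these left out 3 of the 4 have no value. The change was 6.33 to 7.85 for Hsd3b6 relative to Hsd3b1, -1.17 to -0.88 for Hsd17b3 relative to Srd5a1 and 3.32 to 4.09 for Insl3 relative to Lhcgr over the alternatives. Sult1e1 relative to Thbs2 was 11.49, 10.16 after normexp and 11.29 to 11.74 with a replicate left out. Apart from the smaller numbers of probes or arrays that an alternative uses by construction, the cause was not tested.

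Genes not well above background at 1 age have only bounds, which depend on the floor. Whole testis does not separate cell number from RNA per cell, slide and replicate 3 cannot be told apart, 25 of the 60 member spots were outlier-marked, and 3 arrays per age give an exact p no lower than 0.1.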

Other observations

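Among 6 epididymis markers, chosen as a list of genes of a neighbouring tissue, the summed scaled signal was 5.71, 0.262 and 6.23 in neonatal replicates 1, 2 and 3 and 0.186, 0.37 and 0.54 in adult replicates 1, 2 and 3. Crisp1, named after its values were seen, had normalized log2 signals of 2.43, -4.34 and 2.51 at 6 days and -4.23, -4.37 and -5.30 at 8 weeks, so that neonatal replicates 1 and 3 stood far above the other 4 arrays. Its spot in neonatal replicate 3 was outlier-marked. The log2 fold change was -3.35 with this spot left out (adjusted p = 0.204) and -4.84 with it kept (adjusted p = 0.0535). Adam7, also named after its values were seen, was at -1.89, -2.43 and -1.02 and then at -3.31, -1.82 and -1.07. No array had Lcn8 or Rnase9 well above background. Of 4 tested, 1 was higher (Lcn9, 1.95-fold by its bound, call lost in 4 of 24 alternatives) and 0 were lower by limma with marked spots left out, at an adjusted or an unadjusted p of 0.05. With them kept, Crisp1 was lower at an unadjusted p (0.0419) only.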
